A study of Mus musculus with 6 samples.

Results

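The 9 genes described here are a set of mouse transcripts for contractile proteins and for signalling by transforming growth factor beta (TGF-beta) that mark the myofibroblast state. They are Acta2, Tagln, Cnn1, Myl9, Tpm1, Tpm2, Actg2, Tgfbi and Smad7, taken by symbol from the 27179 rows of the deposited gene table, and all 9 had a row. RNA sequencing had been done on mouse embryonic fibroblasts of genotype Cas9+;E1A;HrasG12V, which carry Cas9, the adenoviral oncogene E1A and an activated Hras in every library, so no library represents an untransformed fibroblast. Guide RNAs were delivered by lentivirus, and RNA was taken after selection and 10 days of culture. The Zmat3 knockout group had 3 libraries, with the guides sgZmat3 52.6, 51.5 and 54.8 in libraries 1, 2 and 3. The negative control group had 3 libraries, with the guides EV, SPA and ACOCA in libraries 1, 2 and 3. The comparison asks whether transcripts of these genes differ when guides target Zmat3, which codes for an RNA-binding protein with zinc fingers and is switched on by p53.

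Myofibroblasts are fibroblasts that have built a contractile apparatus, as they do in healing wounds and fibrotic tissue. TGF-beta is stored outside the cell in a latent complex, and once freed it binds a pair of receptor kinases that activate Smad transcription factors. Mechanical tension and actin assembly act beside it through serum response factor (SRF) and its actin-sensing cofactors, which bind a DNA sequence called the CArG box near many muscle and cytoskeletal genes. Smad7 is induced by the pathway and restrains it at the receptors. Tgfbi codes for a secreted matrix adhesion protein induced by TGF-beta.

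CArG boxes are shown for the members that hold one and for the widely expressed relatives with an exact one. The search took CC and GG around a core of 6 letters that are A or T, allowing at most 1 other letter in the core, in the 250 bases before each start site of the RefSeq promoter table (build GRCm38.p6). The box is its own reverse complement in form, so a search of the forward strand covers both strands. An exact box was found in 1.40% of 27025 such windows and a box with at most 1 core letter off in 8.65%. Promoter windows were matched for Acta2, Cnn1, Myl9, Tpm1, Tpm2 and Tgfbi, and Tagln, Actg2 and Smad7 are named only. The relative Actb had no matched window either, so it was not searched. Each window is written 5′ to 3′ on the strand of its gene, with the box in capitals.
Acta2, box 84 bases before the start, chr19:34255438-34255467, minus strand: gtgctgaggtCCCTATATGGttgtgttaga
Acta2, box 34 bases before the start, chr19:34255388-34255417, minus strand: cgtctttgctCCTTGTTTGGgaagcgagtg
Myl9, box 161 bases before the start, chr2:156775293-156775322, plus strand: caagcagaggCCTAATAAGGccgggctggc
Myl9, box 99 bases before the start, chr2:156775355-156775384, plus strand: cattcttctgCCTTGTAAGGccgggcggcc
Actg1, box 90 bases before the start, chr11:120348566-120348595, minus strand: ggaaagatcgCCATATATGGacatgttctg
Cnn2, box 56 bases before the start, chr10:79988534-79988563, plus strand: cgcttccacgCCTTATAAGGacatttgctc

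The first Myl9 box and those of Actg1 and Cnn2 are exact, while the second Myl9 box and both Acta2 boxes have 1 core letter off. GENCODE M21 starts Acta2 further upstream than the RefSeq table does, so its annotation places both Acta2 boxes in the 5′ untranslated region, and the other 4 windows shown lie upstream of their genes. Boxes were also found, and are not printed, for Myl12a and Tpm3 (1 core letter off) and for Srf (2 exact boxes). No such box was in the windows of the members Cnn1, Tpm1, Tpm2 and Tgfbi or of the abundant relatives Cnn3, Tagln2, Myl12b and Tpm4, which says nothing of sequence outside these 250 bases. These matches describe letters and no binding was measured.

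The libraries held 53253055 to 69515101 reads on genes in the knockout group and 60730974 to 90256118 in the control group. Values are the authors' normalised read counts, in which 1 read was worth 0.732 to 1.21. Zmat3 itself stood at 11421, 4912 and 4960 normalised counts in knockout libraries 1, 2 and 3, against 17169, 15868 and 17434 in control libraries 1, 2 and 3, without overlap (limma log2 fold change -1.36, SE 0.33, adjusted p = 0.372, and adjusted p = 0.0441 in DESeq2). Knockout library 1 was the highest of the 3 knockout libraries. Control library 3 stood apart, above or below all other 5 libraries in 73.4% of 14802 genes tested, and the results for the members are therefore also given without it. The fibroblast label was checked against 12 markers, whose summed level was 232512 to 261420 in knockout and 218624 to 243857 in control libraries, nearly all of it Vim and Fn1. Lum was at 0 in all 6 libraries, and Thy1, a common fibroblast surface marker, reached at most 5.42 normalised counts in knockout and 2.36 in control. Of the 9 tested fibroblast markers, 6 had a positive and 3 a negative limma log2 fold change. Limma and DESeq2 called none of them over all libraries, and Col3a1 was the only one that DESeq2 called without control library 3. Col3a1, a fibrillar collagen of fibroblasts, stood at 2987, 3512 and 3546 normalised counts in knockout libraries 1, 2 and 3, against 2424, 2407 and 198 in control libraries 1, 2 and 3. DESeq2 called it higher without control library 3 (log2 fold change 0.46, SE 0.13, adjusted p = 0.0115). That DESeq2 fit called 5.62% of all genes. The summed level of 8 epithelial markers was 24602 to 28840 in knockout and 14003 to 32479 in control libraries, with Krt5 at 0 in all 6, and its genes differed in direction. Epcam, the most abundant of them, stood at 22386, 25182 and 19711 normalised counts in knockout libraries 1, 2 and 3, against 24986, 18992 and 3574 in control libraries 1, 2 and 3. The keratin gene Krt18 stood at 217, 91.3 and 452 in knockout libraries 1, 2 and 3, against 4463, 107 and 8675 in control libraries 1, 2 and 3. Krt8 was at most 4.62 in knockout and 4.76 to 30.7 in control, groups that stood apart by less than 1 read. Krt8 was too low to be among the 5 tested epithelial markers. Of these 5, 0 were lower without overlap, beside 14.3% of all tested genes. The part of these markers in the results was not tested.

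The muscle-type isoforms were low in all 6 libraries, while the widely expressed members of the same protein families were abundant. Per kilobase of annotated exon, the mean level over 6 libraries was 43.9 normalised counts for Acta2 (smooth muscle alpha-actin, the standard myofibroblast marker), against 35839 for Actb (cytoplasmic beta-actin) and 2500 for Actg1 (cytoplasmic gamma-actin). Acta2 thus held 0.232%, 0.139% and 0.167% of the summed per-kilobase level of the 6 actin genes in knockout libraries 1, 2 and 3, against 0.112%, 0.0922% and 0.0225% in control libraries 1, 2 and 3. Myl9, a myosin regulatory light chain of smooth muscle and of stress fibres, had a mean of 18.4 normalised counts per kilobase. Its near relatives Myl12a and Myl12b had 2648 and 3386. Cnn1, the smooth muscle calponin that binds actin and slows myosin, had 16.6 normalised counts per kilobase, and Cnn2 and Cnn3, its relatives outside muscle, had 1997 and 7694. Tagln, an actin-binding protein of smooth muscle also called SM22-alpha, had 59.1 normalised counts per kilobase, against 6369 for its relative Tagln2.

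**Figure D1:**
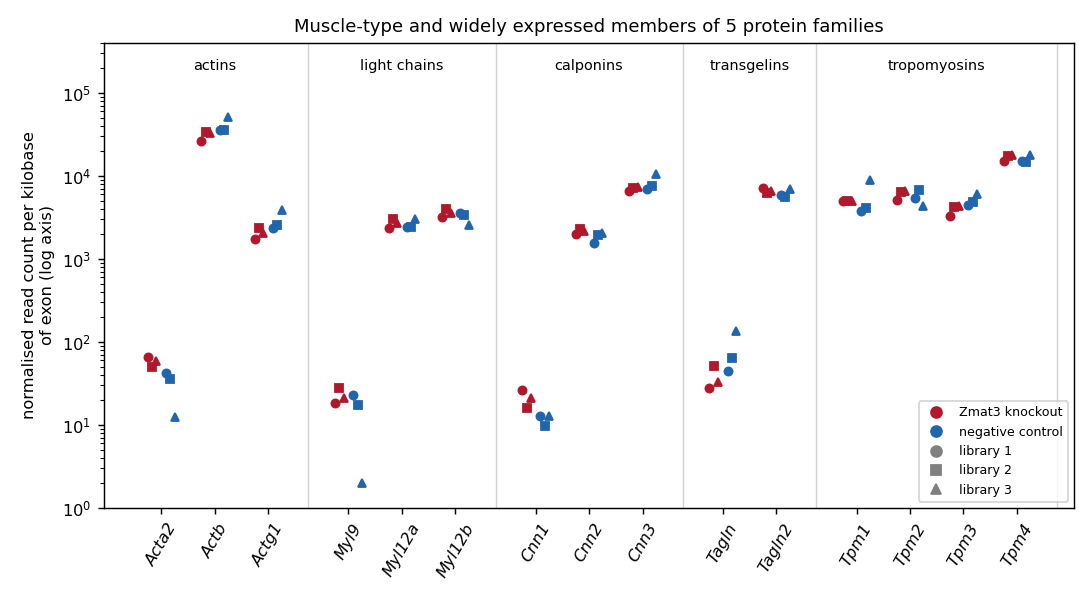
Normalised read count per kilobase of exon (log axis) of muscle-type and widely expressed genes of the actin, myosin light chain, calponin, transgelin and tropomyosin families, 1 point for each library, knockout in red and control in blue. Acta2, Myl9, Cnn1 and Tagln are in every library at most 135, and the lowest value of any other gene shown is 1557, for Cnn2 in control library 1.

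Tropomyosins, which wind along actin filaments and set which motors can use them, did not follow that split. Tpm1 and Tpm2 had means of 5284 and 5759 normalised counts per kilobase, beside 4542 for Tpm3 and 16332 for Tpm4. Both genes make muscle and non-muscle isoforms, and the gene-level counts do not tell these apart. Among 13564 tested genes with an exon length, Tpm1 lay at percentile 96.6 and Tpm2 at 96.9 of the per-kilobase level. Smad7 lay at 37.9, Tagln at 17.9, Tgfbi at 17.3, Acta2 at 15.8, Myl9 at 10.4 and Cnn1 at 9.78. Actg2, the enteric smooth muscle gamma-actin, had 2 reads in knockout library 2, 2 reads in control library 2 and 0 in the other 4 libraries. A count of 0 allows up to 3 reads, which was 2.71 normalised counts in knockout library 1 and 3.64 in knockout library 3, against 2.38 in control library 1 and 3.54 in control library 3, so no fold change is given for Actg2. By these values the best known myofibroblast markers, Acta2, Tagln and Cnn1, ranked low, so the word myofibroblast names these genes here and not the cells. Exon lengths are the union over all annotated transcripts, which understates the per-kilobase level of genes with many of them, such as Tpm1.

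Of the 9 genes, 8 passed the filter on low values, and none of these 8 differed between knockout and control past the false discovery rate of 0.05 in limma, edgeR or DESeq2. Limma called 0 of all 14802 tested genes (0%), with 1949 (13.2%) at an unadjusted p under 0.05, none of them among the 8. EdgeR also called 0 (1943 genes, 13.1%, at an unadjusted p under 0.05), and DESeq2 called 130 of 14383 genes (0.904%, with 11.2% at an unadjusted p under 0.05). Of the 8 members, Cnn1 was under the same unadjusted threshold in edgeR. In DESeq2, Cnn1 and Tgfbi (higher in knockout) and Tagln (lower) were under it, and the other tested members were not. The groups of 3 libraries did not overlap for Acta2, Cnn1 and Tgfbi, all higher in knockout. Over all tested genes 13.1% were higher without overlap and 14.3% lower, 27.5% in all. Without control library 3, Tpm1 joined them, making 4 higher and 0 lower, against 17.4% higher, 17.6% lower and 35% in all over the tested genes. Limma then called 5 genes (0.0338%), none of them among the 8. The median limma log2 fold change of the 8 genes was 0.48 and that of all tested genes was 0.01, and without control library 3 these were 0.24 and 0.01. In RNA from whole cultures, fewer cells with a transcript and less transcript in each cell cannot be told apart.

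**Figure D2:**
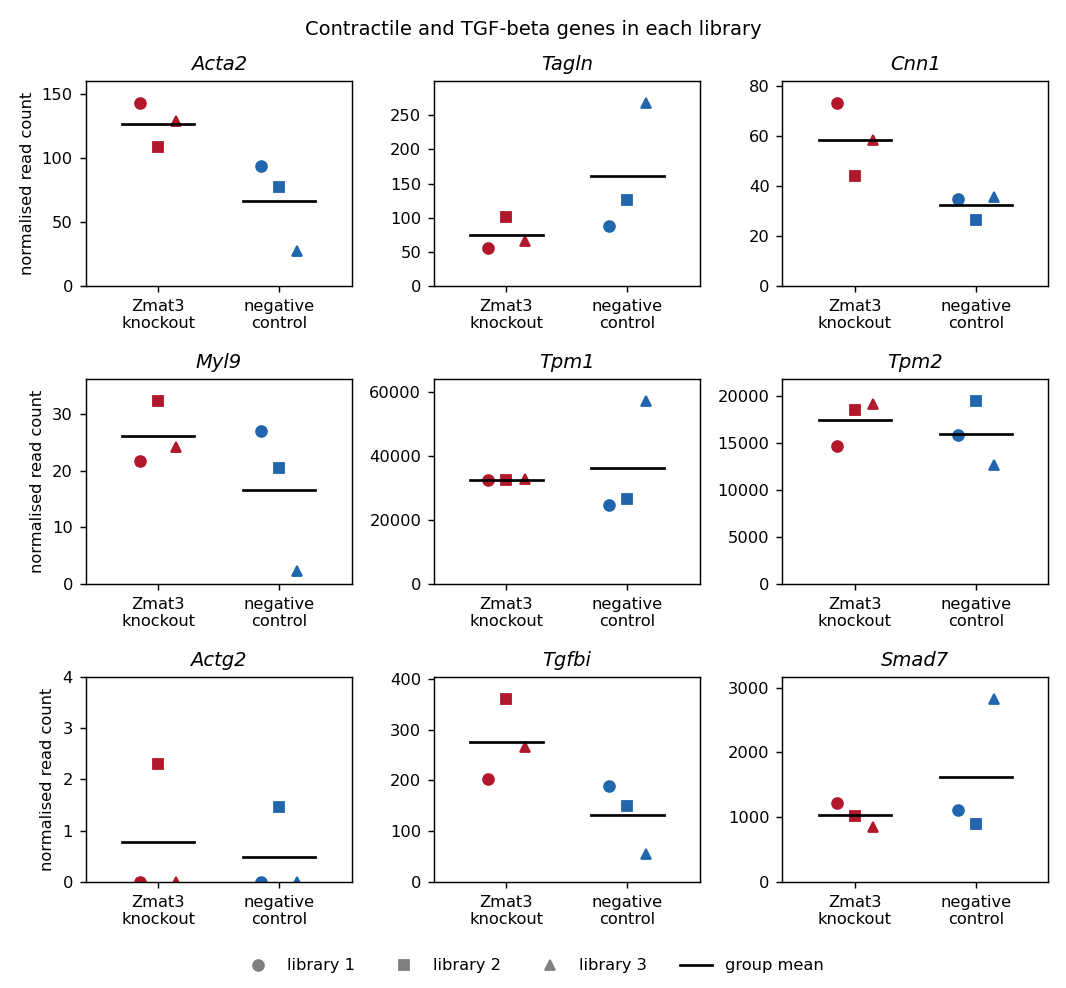
Normalised read count (linear axis from 0, a scale of its own for each gene) of the 9 genes in the 3 Zmat3 knockout libraries, in red, and the 3 negative control libraries, in blue, with the group mean as a line and a marker shape for each library number. Control library 3 is the lowest point for Acta2, Myl9, Tpm2 and Tgfbi and the highest for Tagln, Tpm1 and Smad7.

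Acta2 (Entrez gene 11475; chromosome 19, 34241090 to 34255590, minus strand, GRCm38) had 143, 109 and 129 normalised counts in knockout libraries 1, 2 and 3, against 93.6, 77.6 and 27.1 in control libraries 1, 2 and 3. Every knockout library stood above every control library, and control library 3 was far below the rest. These values rest on 158, 94 and 106 reads in knockout libraries 1, 2 and 3, and on 118, 106 and 23 reads in control libraries 1, 2 and 3. The mean was 127 ± 17 in knockout and 66.1 ± 34.7 in control (SD, n = 3 each), a limma log2 fold change of 1.10 (SE 0.50, 95% interval -0.09 to 2.28, adjusted p = 0.373). The groups still did not overlap once control library 3 was left out, with a limma log2 fold change of 0.56 (95% interval -0.10 to 1.21, adjusted p = 0.393). Over 20 alternative settings the adjusted p of Acta2 ran from 0.0837 to 0.754.

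Cnn1 (Entrez gene 12797; chromosome 9, 22099216 to 22109630, plus strand) had 73.2, 43.9 and 58.2 normalised counts in knockout libraries 1, 2 and 3, against 34.9, 26.4 and 35.4 in control libraries 1, 2 and 3. Control library 3 lay among the others here, and the separation of the groups did not rest on it. The limma log2 fold change was 0.82 (SE 0.35, 95% interval -0.02 to 1.66, adjusted p = 0.372) over all libraries and 0.89 (95% interval -0.02 to 1.81, adjusted p = 0.352) without control library 3. It ran from 0.65 to 1.01 when any 1 library was left out, and was 0.50 under quantile normalisation of all 6. The reads behind Cnn1 were few, at 81, 38 and 48 in knockout libraries 1, 2 and 3 and 44, 36 and 30 in control libraries 1, 2 and 3.

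Myl9 (Entrez gene 98932; chromosome 2, 156775420 to 156781658, plus strand) had 21.7, 32.3 and 24.3 normalised counts in knockout libraries 1, 2 and 3, against 27.0, 20.5 and 2.36 in control libraries 1, 2 and 3. The low control value is 2 reads, and the groups overlapped with or without it. The limma log2 fold change of 1.08 (SE 0.83, 95% interval -0.91 to 3.07, adjusted p = 0.488) stood at 0.12 without control library 3 (95% interval -0.89 to 1.13, adjusted p = 0.912). Over the same 6 libraries it was 0.61 in edgeR, 0.63 in DESeq2, 0.65 under quantile normalisation and 0.57 with a pseudocount of 10.

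Tagln (Entrez gene 21345; chromosome 9, 45929619 to 45936058, minus strand) went the other way, with 56.0, 102 and 65.5 normalised counts in knockout libraries 1, 2 and 3, against 88.1, 126 and 268 in control libraries 1, 2 and 3. The groups overlapped, and control library 3 held more than double the level of any other library. The limma log2 fold change was -0.99 (SE 0.48, 95% interval -2.13 to 0.16, adjusted p = 0.373), and -0.54 without control library 3 (95% interval -1.42 to 0.33, adjusted p = 0.514). DESeq2 called Tagln lower without control library 1 (log2 fold change -1.40, SE 0.49, adjusted p = 0.0369), where it called 14.9% of genes (7.71% lower and 7.23% higher). The adjusted p of Tagln had a range of 0.0369 to 0.734 over its 20 alternative settings. Exons of Tagln overlap an annotated antisense transcript, Gm48529, over 1241 bases and Pcsk7 over 108 bases on the opposite strand. The strand setting of the counting is not given, so reads of these genes cannot be told apart. Pcsk7 itself stood at 2110, 3252 and 3370 normalised counts in knockout libraries 1, 2 and 3, against 3150, 3805 and 4077 in control libraries 1, 2 and 3.

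Tpm1 (Entrez gene 22003; chromosome 9, 67022590 to 67049406, minus strand) had 32550, 32302 and 32661 normalised counts in knockout libraries 1, 2 and 3, against 24490, 26534 and 57057 in control libraries 1, 2 and 3. The knockout libraries were tightly grouped (32504 ± 184, SD), above control libraries 1 and 2 and below control library 3. Over all libraries the limma log2 fold change was -0.04 (SE 0.31, 95% interval -0.79 to 0.71, adjusted p = 0.954). Without control library 3 it turned to 0.35 (SE 0.09, 95% interval 0.14 to 0.56, adjusted p = 0.240), and DESeq2 then called Tpm1 higher in knockout (log2 fold change 0.34, SE 0.09, adjusted p = 0.00738). DESeq2 called 5.62% of genes in that comparison (2.67% higher and 2.95% lower), which rests on 2 control libraries. Over the 20 alternative settings the adjusted p of Tpm1 ran from 0.00738 to 0.973. Tpm2 (Entrez gene 22004; chromosome 4, 43514711 to 43523765, minus strand) had 14739, 18515 and 19197 normalised counts in knockout libraries 1, 2 and 3, against 15858, 19494 and 12716 in control libraries 1, 2 and 3. These groups overlapped, and the 95% interval of the limma log2 fold change of 0.14 (adjusted p = 0.684) ran from -0.31 to 0.59, and from -0.38 to 0.34 around -0.02 without control library 3. Per kilobase, Tpm1 stood at 0.991, 0.783 and 0.763 times Tpm2 in knockout libraries 1, 2 and 3, against 0.693, 0.611 and 2.01 times in control libraries 1, 2 and 3.

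**Figure D3:**
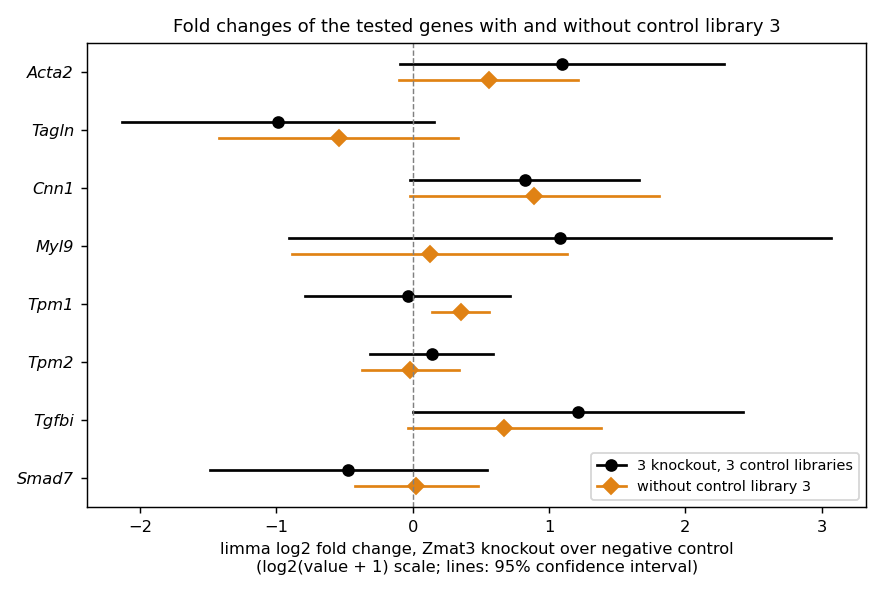
Limma log2 fold change of knockout over control for the 8 tested genes, on the log2(value + 1) scale, with 95% confidence intervals, over all 6 libraries (black circles) and without control library 3 (orange diamonds). Over all libraries every interval spans 0. Without control library 3 the interval of Tpm1 lies above 0, from 0.14 to 0.56.

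Control library 3 was outside the range of the other 5 libraries for 7 of the 8 tested genes, Cnn1 being the exception, and for 73.4% of all tested genes. It was the lowest library for Acta2, Myl9, Tpm2 and Tgfbi and the highest for Tagln, Tpm1 and Smad7 (36.6% and 36.8% of all tested genes). The likeness of library profiles, taken as the root mean square difference of log2(value + 1) centred on each gene's mean over 6 libraries, was closest for Tpm1 with Smad7 (0.31), then Acta2 with Tgfbi (0.36), Myl9 with Tgfbi (0.43) and Tagln with Smad7 (0.48). It was farthest for Tagln with Myl9 (1.76). Outside the lists used here, the tested genes with a mean of at least 50 closest to Acta2 were Rhov (0.07), Stard10 and Zscan2 (0.10 each). Closest to Tgfbi were Atp9a and Psmb9 (0.17 each) and Afap1l1 (0.19), and closest to Tpm1 were Selenos (0.04), Anxa3 (0.05) and Snhg17 (0.07). The closest genes were Rrm2 for Tagln (0.11), Epb41l4aos for Cnn1 (0.12), Btbd17 for Myl9 (0.08), Ubtd1 for Tpm2 (0.04) and Hoxc8 for Smad7 (0.07). All these profiles come from the same 6 libraries, with control library 3 at an extreme of every tested member but Cnn1.

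The genes of the wider contractile apparatus also gave no call over all libraries in limma or DESeq2. The 17 genes of myosin chains and their regulators had a median limma log2 fold change of -0.05, with 3 lower and 0 higher without overlap, where 14.3% of all tested genes were lower and 13.1% higher. Myh9, the main non-muscle myosin heavy chain, stood at 52539 ± 13071 normalised counts in knockout and 61503 ± 4776 in control (SD, n = 3 each). Myh10, another non-muscle myosin heavy chain, stood at 17727 ± 2469 in knockout and 25618 ± 2443 in control, without overlap, and DESeq2 called it lower without control library 3 (log2 fold change -0.46, SE 0.14, adjusted p = 0.0343). That DESeq2 fit called 5.62% of all genes. Rhoa, the small GTPase that starts stress fibre assembly, stood at 26121 ± 2224 and 26540 ± 2120 in knockout and control, and its effector kinase gene Rock2 at 17990 ± 960 and 19030 ± 1175.

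Of 20 other smooth muscle and stress fibre genes, 3 were higher and 5 lower without overlap (13.1% and 14.3% of all tested genes), with a median limma log2 fold change of 0.21 (0.12 without control library 3). Without control library 3 DESeq2 called 3 of them, and 5.62% of all genes. Flna, an actin crosslinker, was lower at 20102 ± 1306 normalised counts in knockout and 33599 ± 11645 in control, or 26880 without control library 3. Its log2 fold change was -0.43 (SE 0.10, adjusted p = 0.00333) in that DESeq2 fit and -0.74 (adjusted p = 0.153) in DESeq2 over all 6 libraries. Actn1, an actin crosslinker of stress fibres, was lower at 25643 ± 805 in knockout and 33436 ± 2369 in control, or 32196 without control library 3. Its DESeq2 log2 fold change was -0.34 (SE 0.09, adjusted p = 0.0107) without that library and -0.38 (adjusted p = 0.171) over all 6. Fhl1, a LIM domain protein of muscle, was higher at 2611 ± 372 in knockout and 1283 ± 676 in control, or 1660 without control library 3. Its DESeq2 log2 fold change was 0.65 (SE 0.18, adjusted p = 0.0104) without that library and 1.02 (adjusted p = 0.197) over all 6. The intermediate filament gene Vim stood at 165927 ± 17025 in knockout and 168179 ± 23664 in control, Actn4 at 62004 ± 4660 and 73184 ± 6244, and Vcl, the adhesion protein vinculin, at 33253 ± 2328 and 28429 ± 3590. Actb stood at 82562 ± 10681 in knockout and 109462 ± 23748 in control, without overlap (limma log2 fold change -0.39, adjusted p = 0.373).

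Srf had 4180, 4610 and 4625 normalised counts in knockout libraries 1, 2 and 3, against 5440, 5959 and 9816 in control libraries 1, 2 and 3. All knockout libraries were below all control libraries, and control library 3 was the highest. Of the 7 genes of SRF and its cofactors, 2 were lower and 1 higher without overlap, beside 14.3% and 13.1% of all tested genes. The limma log2 fold change of Srf itself was -0.61 (SE 0.23, adjusted p = 0.372). Without control library 3 it was -0.35, and DESeq2 then called Srf lower (log2 fold change -0.36, SE 0.11, adjusted p = 0.0324). That DESeq2 fit called 5.62% of all genes. Mkl1, an actin-sensing cofactor of SRF, stood at 4479 ± 342 in knockout and 5178 ± 206 in control (SD, n = 3 each), also without overlap, and neither limma nor DESeq2 called it. Elk3 and Elk1, of the other class of SRF partners, stood at 12451 ± 725 and 3199 ± 189 in knockout, and at 8952 ± 3023 and 3362 ± 96 in control. Myocd, the smooth muscle cofactor myocardin, had 54.2, 46.2 and 63.1 normalised counts in knockout libraries 1, 2 and 3, against 34.9, 45.4 and 69.6 in control libraries 1, 2 and 3.

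Tgfbi (Entrez gene 21810; chromosome 13, 56609523 to 56639562, plus strand) had 203, 360 and 266 normalised counts in knockout libraries 1, 2 and 3, against 189, 150 and 54.3 in control libraries 1, 2 and 3. The groups did not overlap, though knockout library 1 was close to control library 1 in level. The limma log2 fold change was 1.21 (SE 0.51, 95% interval -0.001 to 2.42, adjusted p = 0.372), and 0.67 without control library 3 (95% interval -0.03 to 1.38, adjusted p = 0.358). DESeq2 called Tgfbi higher without control library 1 (log2 fold change 1.43, SE 0.50, adjusted p = 0.0347), where, as for Tagln, 14.9% of genes were called. The adjusted p of Tgfbi had a range of 0.0347 to 0.733 over its 20 alternative settings.

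Smad7 (Entrez gene 17131; chromosome 18, 75367529 to 75395935, plus strand) had 1221, 1022 and 849 normalised counts in knockout libraries 1, 2 and 3, against 1117, 897 and 2825 in control libraries 1, 2 and 3. Control library 3 alone stood apart, and the other 5 libraries overlapped. The limma log2 fold change of -0.47 (SE 0.43, 95% interval -1.49 to 0.54, adjusted p = 0.543) stood at 0.03 without control library 3 (95% interval -0.43 to 0.48, adjusted p = 0.958). Smad6, the related inhibitor of the bone morphogenetic protein branch, named after its values were seen, had 160, 146 and 148 normalised counts in knockout libraries 1, 2 and 3, against 96.8, 75.4 and 49.6 in control libraries 1, 2 and 3. Its groups did not overlap with or without control library 3, and its limma log2 fold change was 1.07 (SE 0.33, adjusted p = 0.372). Among the receptor-activated and shared Smads, Smad2 stood at 5573 ± 91 and 5205 ± 197 in knockout and control, Smad3 at 6266 ± 547 and 6287 ± 517, Smad4 at 8801 ± 458 and 8351 ± 329, and Smad5 at 8493 ± 322 and 9126 ± 172. Of the 8 Smad genes, Smad2 and Smad6 were higher and Smad5 lower without overlap, beside 13.1% and 14.3% of all tested genes. Limma and DESeq2 called none of the 8 Smad genes.

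Upstream, Tgfb1, the main ligand gene, was abundant, with 24677, 30622 and 29154 normalised counts in knockout libraries 1, 2 and 3, against 39537, 28874 and 7159 in control libraries 1, 2 and 3. Control library 3 was again the lowest, as it was for 8 of the 12 ligand and latency genes, while 36.6% of all tested genes had it lowest. Limma log2 fold changes were positive for 11 of the 12, and for 7636 of all 14802 tested genes. Their median over the 12 was 0.50, or 0.22 without control library 3. Without that library Tgfb1 turned to -0.27 and Ltbp3 to -0.11, the rest were positive, and Tgfb3 (0.006) and Thbs1 (0.02) were close to 0. The latency protein genes Ltbp3, Ltbp1 and Ltbp4 stood at 30623 ± 1401, 13541 ± 1806 and 8261 ± 2416 in knockout, and at 28677 ± 8676, 11833 ± 2097 and 5585 ± 4296 in control. Neither limma nor DESeq2 called any of the 12, with or without control library 3.

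Of the kinase receptor genes, Tgfbr1 stood at 3859 ± 128 and 3946 ± 335 in knockout and control and Tgfbr2 at 13882 ± 1534 and 12505 ± 1085 (SD, n = 3 each). The co-receptor Tgfbr3 stood at 4070 ± 131 in knockout and 2963 ± 1002 in control, higher without overlap, as were 13.1% of all tested genes. The co-receptor Eng had 4106, 6809 and 6521 normalised counts in knockout libraries 1, 2 and 3, against 5022, 8755 and 398 in control libraries 1, 2 and 3. None of the 9 receptor genes was called by limma or DESeq2. Among 13 inhibitors, which include Smad6 and Smad7, 4 were higher and 2 lower without overlap (13.1% and 14.3% of all tested genes), and limma and DESeq2 called none. Ski, a corepressor of Smads, stood at 6641 ± 134 in knockout and 8820 ± 1410 in control, and its relative Skil at 6081 ± 532 and 6454 ± 473. Tgif1, a further corepressor, stood at 5886 ± 713 and 4797 ± 351 in knockout and control, and the ubiquitin ligase Smurf2 at 5748 ± 150 and 5950 ± 418.

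**Figure D4:**
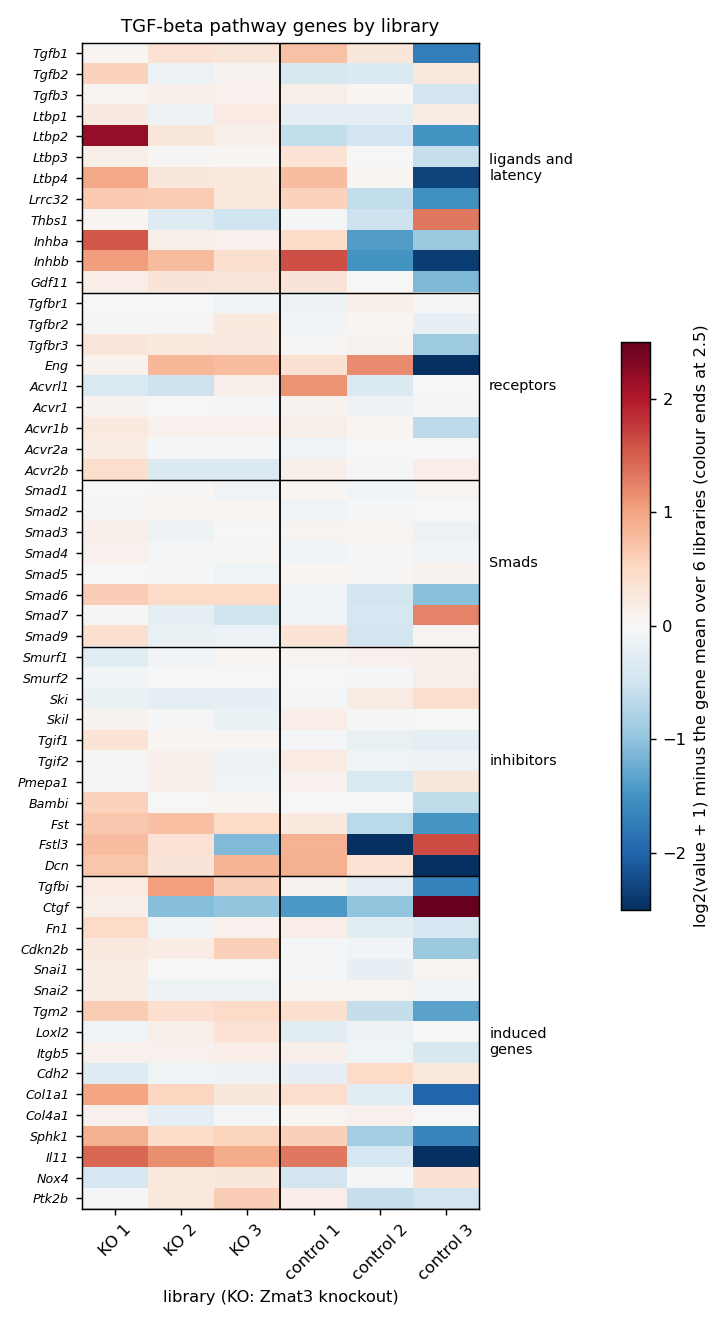
Colour gives log2(value + 1) minus the mean of the gene over the 6 libraries, for 56 tested genes of the TGF-beta pathway (rows) in knockout libraries 1 to 3 and control libraries 1 to 3 (columns), with colours ending at 2.5 in either direction. Control library 3 has most of the deepest colours, with Ctgf, Fstl3 and Thbs1 highest above their means and Il11, Eng and Dcn lowest below them. Smad1, Smad2, Smad3, Smad4 and Smad5 are pale in every library.

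Of 19 tested TGF-beta induced genes, 3 were higher and 0 lower without overlap, with a median limma log2 fold change of 0.26 (0.29 without control library 3). The 3 higher lie near the 13.1% higher over all tested genes, of which 14.3% were lower. Limma and DESeq2 called none of them over all libraries, and DESeq2 called none without control library 3. Ctgf, a matricellular protein induced by TGF-beta and by YAP, had 2834, 1228 and 1323 normalised counts in knockout libraries 1, 2 and 3, against 945, 1302 and 51002 in control libraries 1, 2 and 3. Fn1, the matrix protein fibronectin, stood at 71510 ± 14594 in knockout and 55763 ± 12250 in control, Col4a1 at 27733 ± 3317 and 30121 ± 1031, and the integrin subunit Itgb5 at 13148 ± 355 and 11103 ± 1979 (SD, n = 3 each). Tgfbi and Ctgf thus differed in where control library 3 stood, which was lowest for Tgfbi and highest for Ctgf.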

How the data were processed

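RNA of 6 cultured fibroblast samples was sequenced from TruSeq libraries, per the labels' protocols. The submitters' processing notes name STAR, DESeq2 and mm10. Which counter, strand setting and annotation were used is not given in the sources used here. Deposited values (a signal per gene) behaved as reads scaled by a constant of each library: 100% were whole multiples of 1 read within 0.001, so reads were recovered. Rows labelled without a name (6263) took RefSeq symbols by Entrez number where one matched (93.0% of all rows match), as did 26 symbols turned into dates. They carry gene numbers and stayed in the tests.

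Limma 3.58.1 (trend, robust; R 4.3.3) was run on log2(value + 1) of 14802 genes kept by filterByExpr (minimum count 10), two-sided, with Benjamini-Hochberg adjustment at 0.05. Fold changes are on that scale, and a larger pseudocount shrinks those of low genes (Myl9 1.15 with 0.5 and 0.57 with 10). EdgeR 4.0.16 (quasi-likelihood, TMM) and DESeq2 1.42.0 on recovered reads were alternatives, and adjusted p-values DESeq2 left blank stayed blank. Other alternatives changed scaling, filter, pseudocount, block and libraries. Libraries of a group all differed by more than counting noise (chi-square over its degrees of freedom at least 17.9). Each library had its own guide, and the labels do not say whether cultures were separate, so p-values measure the spread between these libraries. Intervals and floors from reads cover counting error only.

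The members and gene lists were chosen with earlier results of these data known. The rule for naming genes took all members, up to 4 with the highest mean of each list, any DESeq2 or limma call over all 6 libraries, and the 3 most alike profiles. Not every gene that the rule gave is named here, and some outside it are, such as Myl12a and Myl12b. Listed genes called without control library 3, Smad6 and the marker genes were named after their values were seen. Exon lengths and loci are from GENCODE M21, and sequences from RefSeq. Of the 50-base stretches of each member's transcripts, at most 0.326% occurred in transcripts of another gene, the highest share being that of Acta2. 1 gene of the TGF-beta lists is not reported here.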

Additional observations from a re-analysis of the deposited data

How the results depend on the processing

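Over all 6 libraries the 8 tested members had no call in any of the tests, scalings, filters and pseudocounts tried, and the number of genes called was 0 except with DESeq2, which called 130. With 1 library left out, limma called 0 to 5 genes and no member, and DESeq2 (leave-outs added after seeing the data) called 61, 25 and 27 genes without knockout library 1, 2 and 3 and 2142, 87 and 720 without control library 1, 2 and 3, and called 0 to 2 members, which were Tagln and Tgfbi without control library 1 and Tpm1 without control library 3. Acta2, Cnn1, Myl9, Tagln and Tgfbi kept the sign of their log2 fold change under all 20 alternatives. Tpm1 turned from -0.04 to 0.15 under quantile normalisation. Without control library 3 it was 0.35 in limma and 0.34 in DESeq2, Tpm2 was -0.018 in limma and -0.024 in DESeq2, and Smad7 was 0.026 in limma and 0.028 in DESeq2, and the cause was not tested. With each library left out in turn, limma gave -0.26 to 0.35 for Tpm1, -0.018 to 0.29 for Tpm2 and -0.80 to 0.026 for Smad7. Over all 6 libraries, changes of over 1.5 times without a change of call were those of Myl9 (1.08, and 0.57 to 0.65 in edgeR, DESeq2, quantile and pseudocount 10), Cnn1 (0.82, and 0.50 under quantile), Tpm1 (-0.04, and -0.15 in edgeR and DESeq2) and Tpm2 (0.14, and 0.27 under quantile). The median of the 8 members stayed between 0.23 and 0.53 under all alternatives. Whether the replicate numbers pair the libraries was not settled (correlation of deviations 0.264, 0.198 and -0.0137 for numbers 1, 2 and 3). Knockout libraries 1 and 2 were closest to the control library of the same number, while knockout library 3 was closest to control library 2 (0.211). The fit with the replicate block called 0 genes, with member adjusted p-values from 0.296 to 0.945 in limma. Acta2, Cnn1 and Myl9 rest on 158 reads or fewer per library, which limits what can be seen in them.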

Other observations

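Of 8 markers of differentiated smooth muscle, only Smtn and Des, which other cells also use, were above 100 normalised counts in any library. Smtn, an actin-binding protein, stood at 14982, 9545 and 8333 in knockout libraries 1, 2 and 3, against 14571, 10222 and 15118 in control libraries 1, 2 and 3. Myh11, the smooth muscle myosin heavy chain, stood at 39.8, 20.8 and 9.70 in knockout libraries 1, 2 and 3, against 12.7, 23.4 and 11.8 in control libraries 1, 2 and 3. Of 14 striated muscle markers, Myod1 and Pax7 were at 0 in all 6 libraries, and the summed level was 445 to 509 in knockout and 371 to 465 in control, led by Ryr1. Of 6 pericyte markers, Notch3 and Mcam made up most of a summed level of 11842 to 19318 in knockout and 2335 to 15541 in control, where control library 3 was lowest. Of 8 leukocyte markers, Cd68, a lysosomal protein best known from macrophages, made up nearly all of a summed level of 7172 to 9246 in knockout and 828 to 6055 in control, and Laptm5 was at 0 in all 6 libraries. Cd68 stood at 9236, 8035 and 7160 in knockout libraries 1, 2 and 3, against 5352, 6049 and 769 in control libraries 1, 2 and 3, and DESeq2 called it higher without control library 3 (log2 fold change 0.51, SE 0.15, adjusted p = 0.0213). That DESeq2 fit called 5.62% of all genes. The summed level of 7 endothelial markers, led by Kdr, was 489 to 786 in knockout and 202 to 658 in control, and that of 6 neural markers, led by Nes, was 19705 to 22620 in knockout and 21796 to 24453 in control. The part of these markers in the results above was not tested.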
